A study of Arabidopsis thaliana with 18 samples.

Results

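The genes described were the UDP-dependent glycosyltransferases (UGTs) and the glutathione S-transferases (GSTs) of Arabidopsis thaliana petioles. They were chosen by name: every gene whose symbol in the array's annotation began with UGT or GST and that had a probe set of its own, leaving out UGT78D1, UGT78D2 and AT1G06000. This gave 58 genes, 45 UGTs and 13 GSTs, of 13356 genes with a probe set of one gene, and each of the 58 was read by 1 probe set. The annotation gives UGT or GST symbols to only some members of these families, so the counts below are not counts over the whole families.

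UGTs move a sugar from a UDP-sugar onto a small molecule such as a hormone, a phenylpropanoid or a glucosinolate precursor, which changes its solubility, storage and activity. GSTs join glutathione to reactive or foreign compounds or carry small molecules, and plants hold large tau and phi classes (GSTU and GSTF) beside smaller ones such as lambda (GSTL). Both families are known for members that respond to stress and to hormones.

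Petiole RNA of the Col-0 ecotype was measured on 18 one-colour arrays, 3 for each of 6 groups, in a study of red to far-red ratio (R:FR) and blue light signals in dense stands. In the density experiment, pots standing as a canopy (density 2066 plants per m2) were set against pots kept apart (single plants), all 37 days old. Each replicate pooled young petioles of several plants. In the light experiment, single plants 29 days old had received 24 h of low R:FR light, low blue light, both together (combined), or control light. All plants were grown in individual pots in short days, and no group carried a mutation or transgene.

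All values are log2 expression as deposited, and a change is the difference between group means on that scale. A gene was called changed at an adjusted p under 0.05 (limma over all 22746 probe sets, Benjamini-Hochberg), and SE and intervals come from that fit. For the light experiment nothing states that replicates were separate pools, so p-values measure the spread between these samples, which may be technical. An exact permutation test of 3 against 3 arrays cannot go below p = 0.1, so none was used. Petioles are bulk tissue, in which fewer cells of a type and less RNA per cell cannot be told apart. Probe sets differ in how brightly they bind. The levels and family medians below therefore describe array signal, and do not show which gene had more transcript.

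Array medians lay between 1.6 and 1.66, and arrays of one group correlated at 0.9781 to 0.9939. Of the marker genes listed for other cell types, RCA (leaf blade), PYK10 (root), SWEET11 (phloem) and FMA (guard cells) could be read, and no listed xylem or myrosin cell marker could. PYK10, 1 of 3 listed root markers, read 3.69, 3.1 and 2.85 in the canopy, against 0.69, 2.64 and 1.24 in single plants. It was higher in the canopy (1.69 ± 0.45, adjusted p = 0.041 by limma), and its part in the canopy results below was not tested.

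Most UGT genes gave a dim signal in petioles. A mean over the 18 arrays of at least 2 was found for 11 of 45 UGTs (24.4%) and 6 of 13 GSTs (46.2%), beside 9795 of all 22746 probe sets (43.1%). The median gene mean was 1.19 for UGTs and 1.9 for GSTs, against 1.64 for all probe sets. By group, the median UGT level was 1.14 in the canopy and 1.18 in single plants. It was 1.21 under low R:FR, 1.18 under low blue and 1.21 under combined light, against 1.28 in control light. Taken array by array, UGT medians were 1.18 to 1.23 in control light, all below that 1.28. They were 1.19 to 1.24 under low R:FR, 1.19 to 1.26 under low blue and 1.23 to 1.26 under combined light. By array, the UGT median was therefore not lower under the light treatments. In the canopy, array medians of 1.08 to 1.15 all lay below the 1.18 to 1.22 of single plants. This small difference near the floor was not tested. The median GST level was 1.81 in the canopy and 2.3 in single plants, and 1.84, 1.68 and 1.63 under low R:FR, low blue and combined light, against 2.14 in control light. The GST median is the level of 1 gene, GSTU23, in each group, and that gene was not called.

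The 7 UGT73 genes had means between 0.95 and 1.22, and of the 8 UGT76 genes 1 reached 2. Of the 11 tau class genes 4 reached 2. The genes of the UGT74 and UGT71 subfamilies included UGT74B1, UGT74D1 and UGT71B1, with means of 6.06, 5.13 and 4.37. GSTU20, GSTL3, GSTU18 and GSTU27 had means of 8.41, 7.33, 6.19 and 5.71. At the floor, UGT76E12 and UGT73C2 averaged 0.93 and 0.95, and GSTU25 and GSTU22 averaged 0.94 and 0.97. A change of a transcript that does not rise above such a floor was not measurable here.

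**Figure D1:**
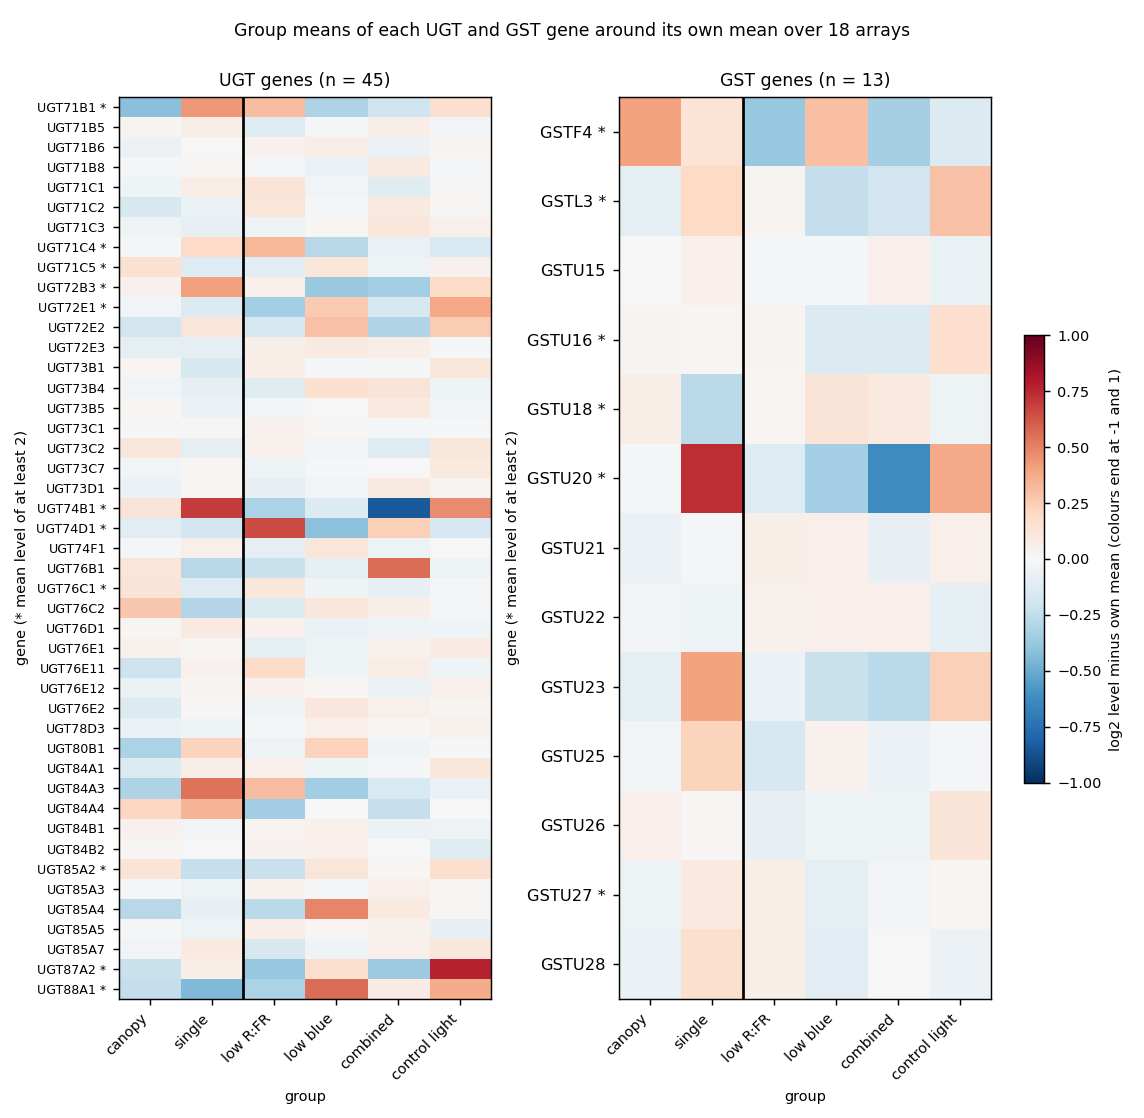
Group means of the 45 UGT genes (left) and 13 GST genes (right), each as the difference from the gene's own mean over 18 arrays on the log2 scale; columns are the 6 groups, the black line divides the density from the light experiment, and an asterisk marks a mean level of at least 2. Most UGT genes stay near 0 in all groups, while UGT74B1 and GSTU20 are deepest blue under combined light.

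Of the 58 genes, 9 were called in at least 1 of 8 comparisons, 7 UGTs and 2 GSTs, and 5 of them in a comparison of a treatment with its own control. Over all probe sets 2069 (9.1%) were called in at least 1 of the 8. Of the 17 genes with a mean of at least 2, 7 were among the 9, beside 1757 of 9795 such probe sets (17.9%), and of the 41 dimmer genes 2 were, beside 2.41%. The 35 genes with a mean under 1.5 gave 1 called gene, UGT84A3, beside 0.976% of such probe sets. The others of these 35 moved between -0.27 and 0.61 in the comparisons with a control.

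In the canopy, 2 UGT genes fell, UGT71B1 and UGT84A3, and none of the 45 rose. Of the 13 GSTs none was called. All probe sets gave 968 calls, 4.26% (2.11% higher and 2.15% lower). The median change was -0.02 over the UGTs and -0.05 over the GSTs, against 0 over all probe sets.

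UGT84A3 makes glucose esters of hydroxycinnamates such as sinapate. It read 1.16, 0.9 and 1.38 on the canopy arrays, against 2.24, 2.05 and 1.69 on the single plant arrays. The groups did not overlap, and UGT84A3 fell by 0.85 ± 0.14 (95% interval -1.13 to -0.56, at least 1.8-fold lower, adjusted p = 0.0012 by limma). The canopy arrays were near the floor. Each difference between group means given for UGT84A3 against a group near the floor is therefore a lower bound. Its related genes UGT84A1 and UGT84A4 were not called. UGT84A1, near the floor with a mean of 1.19, differed by -0.2 ± 0.09. Its canopy arrays all lay below the single plant arrays (adjusted p = 0.29 by limma). UGT84A4 differed by -0.13 ± 0.17.

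UGT71B1 read 3.62, 3.92 and 4.32 in the canopy, against 4.85, 4.83 and 4.74 in single plants. Every canopy array lay below the single plant arrays, and UGT71B1 fell by 0.85 ± 0.18 (1.8-fold lower, adjusted p = 0.01 by limma). Without canopy replicate 1, the adjusted p was 0.062.

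GSTU20, a tau class gene reported in jasmonate signalling and in glucosinolate accumulation, read 8.6, 8.38 and 8.23 in the canopy, against 9.29, 8.84 and 9.33 in single plants. The groups did not overlap, but the difference of -0.75 ± 0.22 missed the threshold (adjusted p = 0.075 by limma). It passed under 5 other settings, among them a fit of the density arrays alone, at adjusted p of 0.03 to 0.047.

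UGT74B1, which adds the glucose of the glucosinolate core, read 5.95, 6.21 and 6.43 in the canopy, against 6.76, 6.76 and 6.77 in single plants (-0.57 ± 0.17, adjusted p = 0.08). The 3 canopy arrays were all lower. The tau class genes GSTU18 and GSTU23 differed by 0.33 and -0.49 without passing the test. Of the GSTs, 6 of 13 had canopy and single arrays that did not overlap, 5 of them lower in the canopy. This was beside 19.3% of all probe sets and 5 of 45 UGTs, all 5 lower. The 5 lower GSTs included the dim GSTU25 and GSTU28, with means of 0.94 and 1.28. Counts of groups that did not overlap, here and below, include genes near the floor, whose change could not be read.

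**Figure D2:**
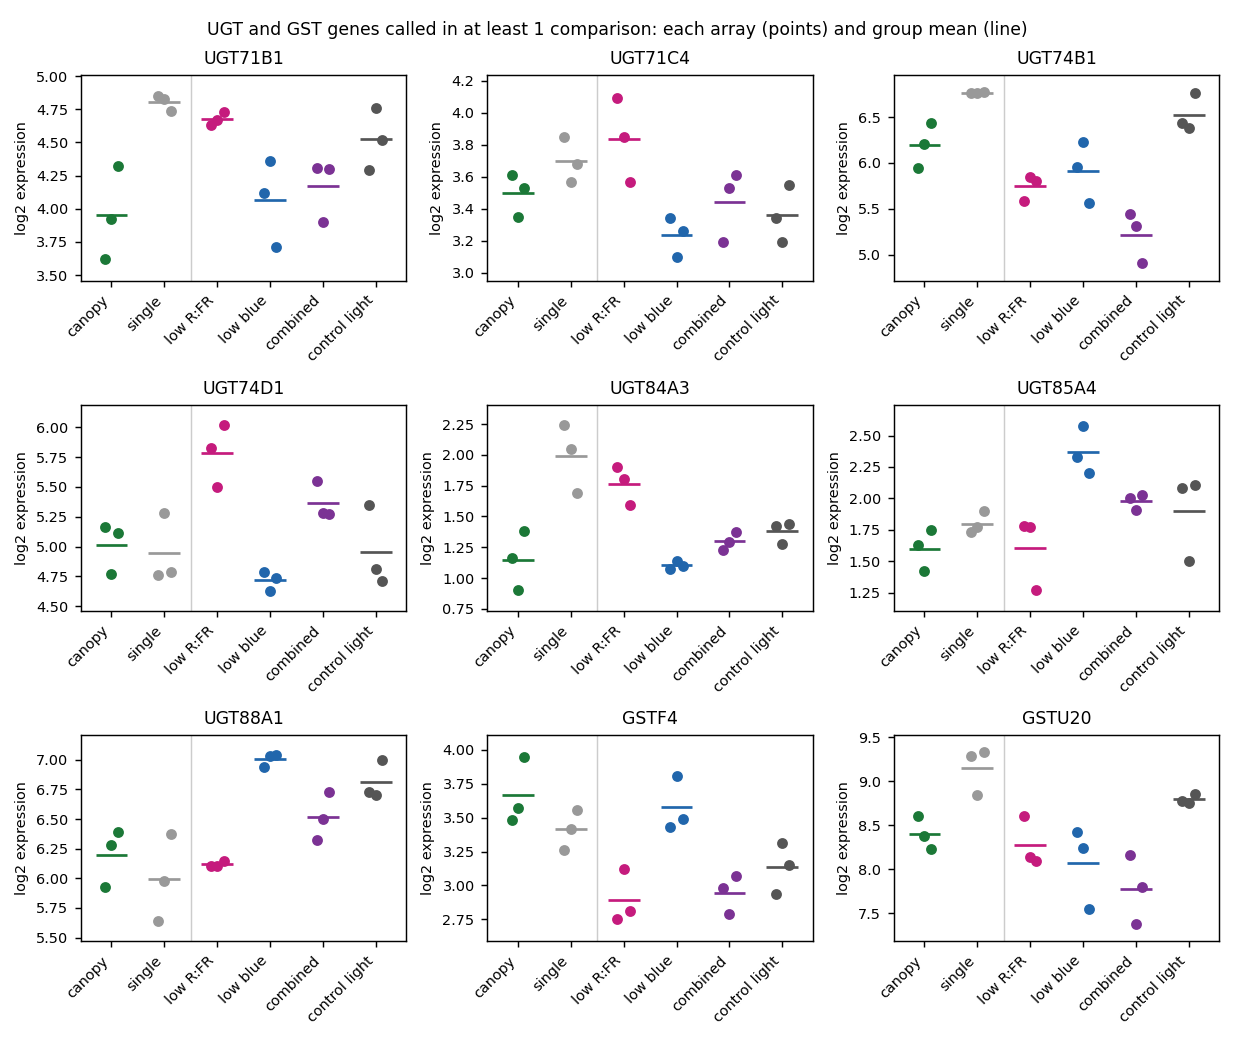
Log2 expression (vertical axes, each scaled to its gene) on each of the 18 arrays for the 9 genes called in at least 1 comparison; points are arrays, short lines are group means of 3 arrays, and the grey vertical line divides the density from the light experiment. UGT74B1 is lowest under combined light at 5.44, 5.31 and 4.91, and UGT74D1 is highest under low R:FR at 5.83, 5.5 and 6.02.

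Under low R:FR light, 1 UGT gene rose, UGT74D1, and 1 fell, UGT74B1. None of the GSTs was called, and all probe sets gave 197 calls, 0.866% (0.62% higher and 0.246% lower). Arrays of low R:FR and control light did not overlap for 10 of 45 UGTs, 5 in each direction, and for 3 of 13 GSTs. The share over all probe sets was 16.2%. Among these 3 GSTs, GSTU22 and GSTU26 were near the floor. The median change was -0.06 over the UGTs and -0.14 over the GSTs, against -0.01 over all.

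UGT74D1, which adds glucose to auxins, read 5.83, 5.5 and 6.02 under low R:FR, against 5.35, 4.81 and 4.71 in control light. All low R:FR arrays lay above the control light arrays, and UGT74D1 rose by 0.83 ± 0.18 (95% interval 0.45 to 1.21, 1.77-fold higher, adjusted p = 0.041 by limma). This call was lost in 4 of the 6 fits that left out 1 array of these groups, with adjusted p up to 0.21 without control light replicate 3.

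UGT74B1 read 5.58, 5.85 and 5.8 under low R:FR, against 6.44, 6.38 and 6.76 in control light. The groups did not overlap, and UGT74B1 fell by 0.79 ± 0.17 (1.72-fold lower, adjusted p = 0.041 by limma). It lost the call in 5 of 6 such fits, up to 0.21 without control light replicate 3, and in the fit of the light arrays alone (adjusted p = 0.084). No UGT was called without control light replicate 2 or 3, or without low R:FR replicate 1 or 3. In each of these fits the calls over all probe sets also fell below the 197 of the main fit. These losses are therefore not read as a result about the UGTs. UGT88A1 read 6.1, 6.1 and 6.15 under low R:FR, against 6.73, 6.7 and 7 in control light (-0.69 ± 0.16, adjusted p = 0.052). It missed the threshold although every low R:FR array was lower, and it passed under 6 other settings at adjusted p of 0.0076 to 0.047.

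Under low blue light none of the 58 genes was called, with 132 calls (0.58%) over all probe sets and 5 UGTs and 4 GSTs at an unadjusted p under 0.05 by limma, beside 9.61% of all. Arrays did not overlap for 5 of 45 UGTs and 5 of 13 GSTs, beside 11.6% of all probe sets. These GSTs included GSTU22 and GSTU26, near the floor. GSTU20 read 8.42, 8.24 and 7.55 under low blue, against 8.78, 8.75 and 8.85 in control light (-0.72, adjusted p = 0.2). UGT74B1 differed by -0.61 (adjusted p = 0.15), GSTL3 of the lambda class by -0.53 ± 0.13 (0.093) and GSTF4 of the phi class by 0.44 ± 0.15 (0.26). UGT85A4 had the highest change of the UGTs, 0.48 ± 0.16 (adjusted p = 0.27 by limma). Without control light replicate 1 or without low blue replicate 2, 1 GST was called.

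Under combined light, UGT74B1 and GSTU20 fell and no UGT or GST rose, with 514 calls (2.26%) over all probe sets, 1.55% higher and 0.712% lower. These were 1 of 45 UGTs and 1 of 13 GSTs. Arrays did not overlap for 5 of 45 UGTs, all lower, and 6 of 13 GSTs, 4 lower and 2 higher. The share over all probe sets was 15.5%. These GSTs included GSTU15, GSTU21, GSTU22 and GSTU26, near the floor with means of 0.98, 0.99, 0.97 and 1.15. The others were GSTU20 and GSTL3, which has a mean of 7.33. GSTL3 differed by -0.48 ± 0.13 and was not called (adjusted p = 0.077 by limma, 0.036 with array weights). The median change was -0.03 over the UGTs and -0.13 over the GSTs, against 0 over all.

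UGT74B1 read 5.44, 5.31 and 4.91 under combined light, and all 3 lay below every array of the other 5 groups. It fell by 1.31 ± 0.17 relative to control light (95% interval -1.67 to -0.94, 2.47-fold lower, adjusted p = 4e-04 by limma). The call held without each array of these groups in turn, up to adjusted p = 0.0032, and reached 0.05 without control light replicates 1 and 3 together.

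GSTU20 read 8.16, 7.38 and 7.8 under combined light, against 8.78, 8.75 and 8.85 in control light. The groups did not overlap, and GSTU20 fell by 1.01 ± 0.22 (95% interval -1.48 to -0.54, 2.01-fold lower, adjusted p = 0.021 by limma). The call was lost in 4 of 6 fits without 1 array, those without combined replicate 2 or 3 or control light replicate 2 or 3, with adjusted p up to 0.13 without combined replicate 2. It was also lost in the fit of the light arrays alone (0.051). Without control light replicate 1, 3 GSTs were called, GSTL3 among them. This count stands without a share over all probe sets and is not read as a result about the GSTs.

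BCAT4, which starts methionine chain elongation for aliphatic glucosinolates, was the only 1 of 25 listed glucosinolate genes that could be read by symbol. BCAT4 read 2.37, 1.26 and 3.57 under combined light, against 4.22, 6.01 and 6.65 in control light. The groups did not overlap, but the arrays of each group were far apart and the difference of -3.23 ± 0.95 was not called (adjusted p = 0.1 by limma). In the canopy BCAT4 differed by -2.78 ± 0.95 (adjusted p = 0.14). The glutathione reductase genes GR1 and GR2, 2 of 17 listed glutathione and detoxification genes that could be read, were called in none of these comparisons, and none of 7 listed UDP-sugar genes could be read.

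Of the UGTs with a mean of at least 2, 9 of 11 were lower under combined light than in control light (median -0.29), and of such GSTs 5 of 6 (median -0.25), beside 5005 of 9795 such probe sets. Under low blue light 9 of 11 UGTs (median -0.13) and 4 of 6 GSTs were lower, beside 4627 of 9795. Under low R:FR light 7 of 11 UGTs (median -0.16) and 4 of 6 GSTs (median -0.19) were lower, beside 5176 of 9795. In the canopy 5 of 11 UGTs (median 0.07) and 3 of 6 GSTs (median -0.07) were lower than in single plants, beside 4965 of 9795. The 3 light comparisons share their control light arrays.

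**Figure D3:**
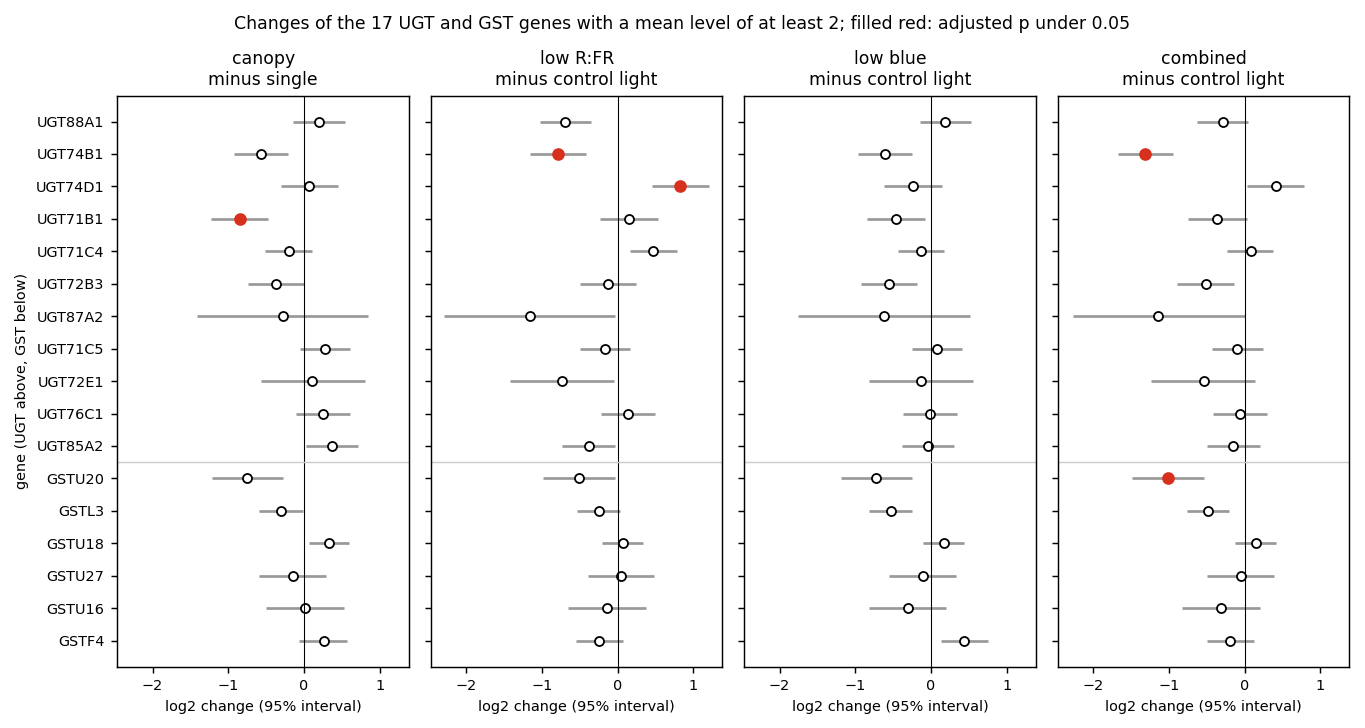
Log2 change (horizontal axes) of the 17 UGT and GST genes with a mean level of at least 2 in the 4 comparisons with a control; points are differences of group means, bars are 95% intervals, and filled red points have an adjusted p under 0.05. Red points are UGT71B1 in the canopy, UGT74B1 and UGT74D1 under low R:FR, and UGT74B1 and GSTU20 under combined light, where UGT74B1 reaches -1.31.

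Low R:FR and low blue light were compared directly, which leaves control light out of the difference. Of the UGTs 3 were higher and 2 lower under low R:FR than under low blue, and of the GSTs 1 was lower, with 998 calls (4.39%) over all probe sets, 2.26% higher and 2.13% lower. Arrays did not overlap for 10 of 45 UGTs and 2 of 13 GSTs, beside 20.8% of all probe sets.

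UGT74D1 was 1.07 ± 0.18 higher under low R:FR (5.83, 5.5 and 6.02) than under low blue (4.79, 4.63 and 4.74), with an adjusted p of 0.0019 by limma. UGT84A3 read 1.9, 1.8 and 1.59 under low R:FR, against 1.07, 1.14 and 1.1 under low blue, near the floor (at least 0.66 ± 0.14, adjusted p = 0.0086). For both genes the groups lay apart. UGT71C4 was 0.6 ± 0.14 higher (adjusted p = 0.022), a call lost in 3 of 6 fits without 1 array: without low R:FR replicate 1 (0.11) or 2 (0.076), or low blue replicate 2 (0.098).

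UGT88A1 was lower under low R:FR (6.1, 6.1 and 6.15) than under low blue (6.94, 7.03 and 7.04), by -0.88 ± 0.16 (adjusted p = 0.0032 by limma). UGT85A4 read 1.78, 1.77 and 1.27 under low R:FR, against 2.33, 2.58 and 2.2 under low blue (-0.76 ± 0.16, adjusted p = 0.011). Neither gene's arrays overlapped. GSTF4 read 2.75, 3.12 and 2.81 under low R:FR, against 3.43, 3.81 and 3.49 under low blue (-0.68 ± 0.15, adjusted p = 0.012), and its call was lost without low R:FR replicate 1 or 3 and without low blue replicate 2, with adjusted p up to 0.071. UGT85A4 lost its call without low R:FR replicate 3 (0.066) or low blue replicate 2 (0.061).

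UGT74B1 and GSTU20 were not called between the single cues, at -0.18 and 0.21. Their 95% intervals, -0.54 to 0.19 and -0.26 to 0.68, bound the difference between the cues.

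**Figure D4:**
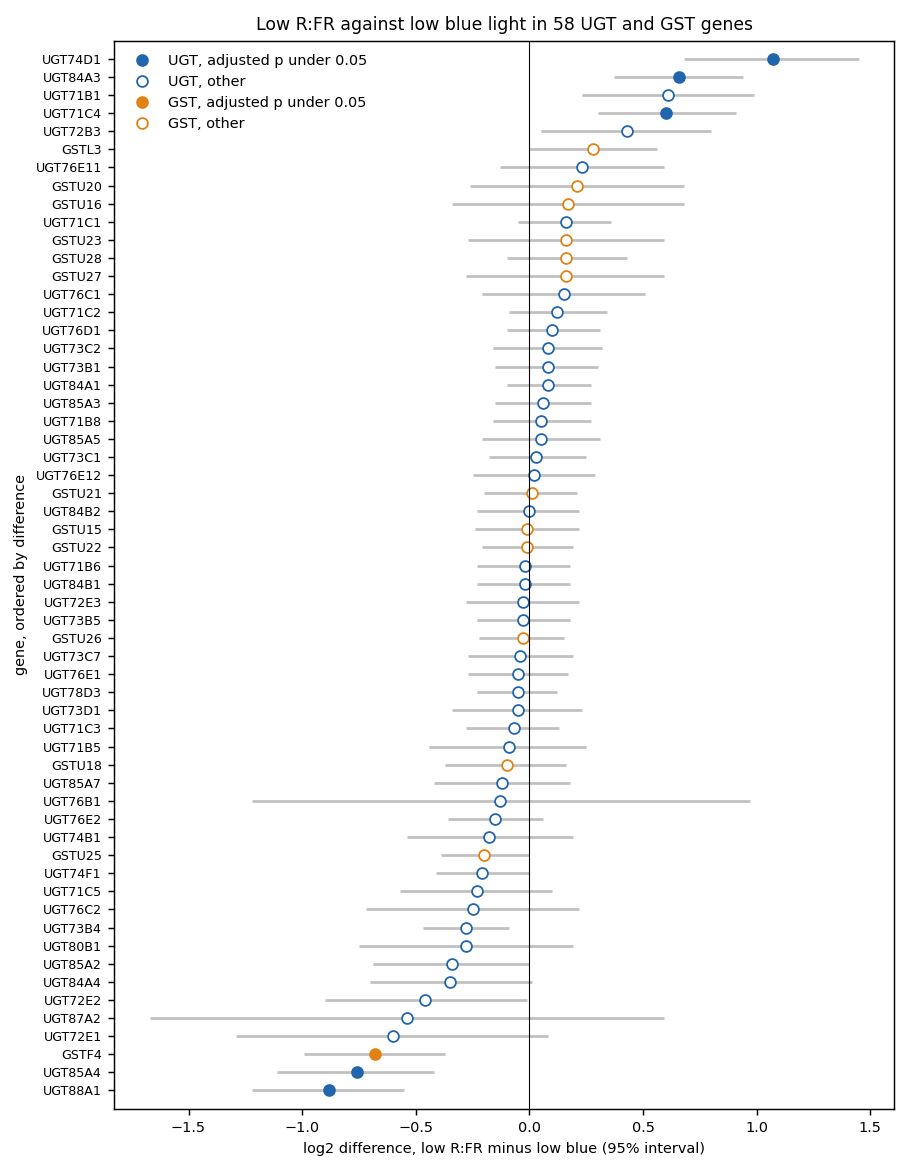
Difference between low R:FR and low blue light on the log2 scale (horizontal axis) for the 58 genes, ordered by the difference; points are differences of group means, bars are 95% intervals, blue marks UGTs, orange GSTs, and filled points have an adjusted p under 0.05. UGT74D1 stands at 1.07 and UGT84A3 at 0.66 on the right, and UGT88A1 at -0.88, UGT85A4 at -0.76 and GSTF4 at -0.68 on the left.

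The combined change was next set against the sum of both single changes. No probe set of the 22746 was called by limma (0%), 811 (3.57%) had an unadjusted p under 0.05, and no UGT or GST was among the 811. For UGT74B1 the departure from the sum was 0.09 ± 0.24 and for GSTU20 it was 0.22 ± 0.32. The 95% interval was -0.42 to 0.6 for UGT74B1 and -0.44 to 0.89 for GSTU20. With 3 arrays a group, departures within these bounds remain compatible with the data.

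The canopy change and the combined light change differed in no UGT or GST by the test of the difference, with 182 calls (0.8%) over all probe sets and 5 UGTs and 1 GST at an unadjusted p under 0.05 by limma, beside 10.3% of all. Without single replicate 3, 1 UGT was called, a count that stands without a share over all probe sets. UGT74B1 differed by 0.74 ± 0.24 (adjusted p = 0.22), so its canopy change of -0.57 was not shown to be smaller. UGT84A3 came nearest the threshold, at -0.76 ± 0.19 (adjusted p = 0.078). Its mean was 1.99 in single plants, but 1.38 in control light and 1.3 under combined light, near the floor. A fall as large as that in the canopy could therefore not be read in the light experiment, and the size of -0.76 is not a lower bound. The experiments also differed in plant age. Against the low R:FR change, UGT84A3, near the floor in the canopy, differed by -1.23 ± 0.19 (95% interval -1.63 to -0.82, adjusted p = 0.0024 by limma), a comparison added after its values were seen, with 473 calls (2.08%) over all probe sets. In that comparison every canopy array of UGT84A3 lay below the single plants, and every low R:FR array lay above control light (1.42, 1.28 and 1.44). Arrays did not overlap for 19.3% of all probe sets in the canopy and 16.2% under low R:FR. The low R:FR change of UGT84A3 was not itself called (0.38 ± 0.14, adjusted p = 0.25 by limma).

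Single plants at 37 days and control light plants at 29 days differed in 1 UGT upward, 1 UGT downward and no GST, with 197 calls (0.866%) over all probe sets, 0.554% higher and 0.312% lower. UGT84A3 was 0.61 ± 0.14 higher in the single plants (adjusted p = 0.041 by limma). UGT88A1 read 5.64, 5.98 and 6.37 there, against 6.73, 6.7 and 7 in control light, and was lower by -0.81 ± 0.16 (adjusted p = 0.021). Age and experiment cannot be told apart here, and UGT84A3 lost its call in 5 and UGT88A1 in 4 of 6 fits without 1 array. The highest adjusted p was 0.19 for UGT84A3 without single replicate 1 and 0.1 for UGT88A1 without control light replicate 3.

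Hormone-related UGTs other than UGT74D1 were not called. UGT76C1 and UGT76C2, which glucosylate cytokinins, differed by 0.25 and 0.56 ± 0.22 in the canopy (adjusted p = 0.22 for UGT76C2). UGT71C5 and UGT71B6, which act on abscisic acid, had means of 2.79 and 0.99, and UGT71B6 stayed near the floor. UGT74F1 (salicylate) and UGT84B1 (auxin) averaged 0.96 and 1.02. UGT72E1 and UGT72E2, which glucosylate monolignols and related aldehydes, averaged 2.53 and 1.51, and UGT72E1 differed by -0.73 ± 0.32 under low R:FR without passing the test (adjusted p = 0.38). UGT80B1, a sterol glucosyltransferase, averaged 1.67.

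UGT87A2, known for an effect on flowering time, had a pooled SD within groups of 0.76. It read 1.84, 2.12 and 3.38 under combined light, against 2.47, 3.65 and 4.64 in control light. The groups overlapped, and the difference of -1.14 was not called (adjusted p = 0.39). UGT87A2 also had the lowest change of the UGTs under low R:FR, -1.16 ± 0.54 (adjusted p = 0.41 by limma), and under low blue, -0.62 ± 0.54 (0.82). In both its arrays overlapped those of control light.

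Many of the genes lie beside a relative. In the gene order of the TAIR10.1 assembly, 34 of the 58 sat in 14 runs with at most 1 protein-coding gene between neighbours. Counted over these 58 genes only, GSTU20 ends a run with GSTU23, GSTU22 and GSTU21. Family members without such a symbol on the array may lie further along. Under combined light GSTU23 differed by -0.52 ± 0.2, GSTU22 by 0.14 and GSTU21 by -0.13 without passing the test. UGT84A3 stands between UGT84A1 and UGT84A4, and UGT71C4 between UGT71C5 and UGT71C3. In each of these runs 1 gene was called and its neighbours were not, and differences between neighbours were not tested. GSTU22, GSTU21, UGT71C3 and UGT84A1, with means of 0.97, 0.99, 1.1 and 1.19, were near the floor. For them the lack of a call does not show that they stayed unchanged.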

How the data were processed

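Petiole RNA was measured on 18 one-colour Affymetrix ATH1 arrays, 3 per group. The authors deposited 1 value per probe set and array, made with RMA per the submitters' processing notes; which program ran it, in which version, was not given in the sources used here. Per the hybridization controls, the deposited values are on a log2 scale.

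From these values, 64 control probe sets were set aside and 22746 probe sets were fitted with limma 3.58.1 in R 4.3.3, with a mean per group, 12 residual and 4.41 prior degrees of freedom, and Benjamini-Hochberg adjustment within each of 8 comparisons. The fit was tested on simulated data. Genes were named from the array's annotation table, which can be old. Genes named in the text are those called in any comparison, the highest and lowest change per family and comparison with a control, the 4 brightest and 2 dimmest per family, and listed genes of known role (13 of 35 could be read), with other genes singled out after their values were seen. The genes and lists were chosen with earlier results of these data known. Of the listed genes of related pathways and cell types, only those the annotation names on a probe set of one gene were read.

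Alternatives were quantile normalization, median centring, a filter at a mean of 2, an intensity trend, array weights, fits of one experiment, another probe set per gene, gene table symbols, the replicate number as a block, and leaving out arrays. The choice of another probe set could change nothing, since no UGT or GST gene here had a further probe set of its own. The number of arrays limits the precision. Whether replicate numbers pair the arrays was not settled, and the main fit used no pairing. As deviations from group means, same-numbered arrays correlated at 0.169, 0.334 and 0.062 in the canopy comparison. The values were 0.283, 0.042 and 0.335 for combined light, -0.02, 0.054 and 0.027 for low R:FR, and -0.177, 0.023 and -0.396 for low blue. In no comparison did all of them exceed 0.1.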

Additional observations from a re-analysis of the deposited data

Results flagged for a closer look

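Low R:FR and low blue light had different effects on 6 of the 58 genes by the direct test between them (limma), beside 998 of 22746 probe sets (4.39%). UGT74D1 was 1.07, UGT84A3 0.66 and UGT71C4 0.6 higher under low R:FR than under low blue, and UGT88A1 differed by -0.88, UGT85A4 by -0.76 and GSTF4 by -0.68 on the log2 scale. The calls of GSTF4 and UGT71C4 were lost in 3 of 6 fits without 1 array and that of UGT85A4 in 2, and UGT84A3 was near the floor under low blue. Of these genes only UGT74D1 was also called for low R:FR against control light, and none was called for low blue against control light.

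The effects of the canopy and of low R:FR on UGT84A3 differed by -1.23 on the log2 scale, tested as the difference of both effects. The comparison was added after the values of UGT84A3 were seen, and its canopy arrays were near the floor, so the size is a lower bound. The difference lay between -1.38 and -1.1 in the 12 fits without 1 array of these groups, with adjusted p up to 0.01. On its own, the low R:FR change of UGT84A3 was not called.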

How the results depend on the processing

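No named change reversed its direction past the threshold under any setting. With probe sets of a mean of at least 2 only, 1 UGT was called in the canopy and 1 between single and control light plants, since UGT84A3 was not tested there. With array weights, 4 UGTs were called under low R:FR and 2 GSTs under combined light, while calls over all probe sets came to 457 against 197 and 653 against 514 without weights. Without control light replicates 1 and 3, 0 UGTs were called under low R:FR, and 0 UGTs and 0 GSTs under combined light. That fit keeps 1 control light array, assumed to vary like the other groups, and called 37 and 112 of all probe sets, so these losses say little about the UGTs and GSTs. Fits of one experiment called 0 GSTs under combined light. In the canopy 1 GST, GSTU20, was called with the filter, the intensity trend, array weights, fits of one experiment and the replicate block, against 0 without them. The cause of these shifts was not tested.

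With the replicate number as a block, UGT74B1 lost its call under low R:FR (adjusted p = 0.051) and UGT88A1 gained one (0.0076). Of 6 arrays per comparison, 4 in the canopy, 2 under low R:FR, 1 under low blue and 4 under combined light correlated best with their own number.

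Without 1 array at a time, called UGTs ranged between 1 and 2 in the canopy, 0 and 3 under low R:FR, 4 and 5 between low R:FR and low blue, 0 and 1 for canopy against combined effects, and 0 and 2 for single against control light plants. Under low R:FR, calls over all probe sets moved the same way. They were below the 197 of the main fit wherever fewer than 2 UGTs were called, and above it where 3 were. Called GSTs ranged between 0 and 1 under low blue, 0 and 3 under combined light, and 0 and 1 between low R:FR and low blue. The calls of UGT84A3 in the canopy and of UGT74B1 under combined light held in each such fit, as did those of UGT74D1, UGT84A3 and UGT88A1 between low R:FR and low blue. Comparisons across experiments had no value in fits of one experiment. Near the array floor, differences between group means are lower bounds and transcripts that stay there could not be read for change. A difference of changes with groups near the floor on both sides has no such bound.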

Other observations

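Some genes of these families carry another symbol in the annotation and were not counted. UF3GT (UGT79B1, an anthocyanin glycosyltransferase) averaged 1.23, GT72B1 (UGT72B1) 6.44 and SGT (UGT80A2, a sterol glucosyltransferase) 3.87 over the 18 arrays. None was called in the 8 comparisons, and adding them changed no count of called genes. The probe sets shared by UGT73B2 and UGT73B3, by AT1G73885 and UGT89B1, and by UGT71D1 and AT2G29710 averaged 1.24, 3.98 and 2.83, and none was called.

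UGT76B1, which glucosylates salicylate and N-hydroxypipecolate in defence, was high on single arrays. It read 0.9, 1.1 and 3.68 under combined light, against 0.96, 1.12 and 1.77 in control light, and 2.35, 1.13 and 0.88 in the canopy, against 1.1, 1.16 and 0.88 in single plants. On the arrays other than combined replicate 3, canopy replicate 1 and control light replicate 3 it stayed near the floor.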
